A study of Homo sapiens with 12 samples.

Results

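ENAH, VASP and EVL are the 3 human genes of the Ena/VASP family of actin regulators. Their RNA was followed with every exon and junction probe set that carried ENAH, VASP or EVL as its single gene symbol in the array's annotation. That gave 127 of the 672085 probe sets with a single symbol: 55 for ENAH, 28 for VASP and 44 for EVL. ENAH was chosen because changes of its probe sets against control were already known from these arrays, so all its values, against control and between hairpins, are a description. ENAH probe sets past the call rule used for all genes are counted, but these counts use the values that chose the gene and are no evidence of their own. VASP and EVL were added as its paralogs.

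All samples were of the line 293T, derived from human embryonic kidney and expressing SV40 large T antigen. The cells were infected with lentivirus made from a hairpin plasmid, and puromycin at 1 ug/mL was started 48 hours later and kept for 10 days before total RNA was taken. The 4 groups had 3 arrays each: a non-target control hairpin, and the hairpins shRNA1, shRNA2 and shRNA3 against RBFOX2. All groups therefore share the infection and the drug selection, and no uninfected cells were analysed here. The cells of a group are a selected population, and the labels do not say whether the replicates of a group were separate cultures, and p-values here reflect nothing beyond the spread among arrays, possibly a technical one.

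Ena/VASP proteins bind the growing ends of actin filaments, help add monomers there and hold off capping proteins. An EVH1 domain at one end of the protein docks on proline-rich motifs of adhesion and membrane proteins, and an EVH2 domain at the other end binds actin and joins the proteins into tetramers. ENAH transcripts are known to be spliced in several ways, among them a form made mainly by epithelial cells. RBFOX2 is an RNA-binding protein that recognises GCAUG and regulates whether nearby exons are kept, and ENAH is among its known targets in human cells.

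The log2 medians of the arrays ranged from 7.24 to 7.27, and no 2 arrays were identical. All 9 genes listed as expressed in this line, among them vimentin and the neurofilaments, had most of their probe sets above the level cutoff of log2 6.53, the 40th percentile of all probe sets. Of 7 genes that mark other cell types, only COL1A1, a collagen gene, did so. RBFOX2, the targeted gene, had a gene value of 9.58 to 9.59 in control, 8.51 to 8.59 for shRNA1, 9.10 to 9.16 for shRNA2 and 8.82 to 8.85 for shRNA3. The ranges do not overlap, and the remaining signal was 48.7%, 72.6% and 59.7% of control.

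Of the 127 probe sets, 113 had a mean over the 12 arrays above the cutoff: 49 of 55 for ENAH (30 exons and 19 junctions), 27 of 28 for VASP (13 exons and 14 junctions) and 37 of 44 for EVL (22 exons and 15 junctions). The 6 probe sets of ENAH that were left out had means of 2.49 to 3.85, far from the faintest one kept, PSR01059269, at 7.64. The single VASP probe set left out, PSR19009102, had a mean of 4.81, and the faintest one kept, JUC19005404, 6.67. For EVL the 7 left out had means of 2.59 to 6.41, and the nearest on either side of the cutoff were JUC14003990 at 6.41 and JUC14003997 at 6.996. Names starting with PSR are exon probe sets and names starting with JUC are junction probe sets.

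A total of 3 ENAH probe sets, 1 exon and 2 junctions, were much lower in all knockdown groups than in control. The log2 signal of exon PSR01059248 was 9.67, 9.88 and 9.82 in control, 7.70, 7.71 and 7.66 for shRNA1, 9.19, 9.27 and 9.09 for shRNA2, and 7.68, 7.74 and 7.70 for shRNA3. Every knockdown array was below every control array, and the shRNA2 arrays lay between the controls and the other hairpins without touching either. The signal left was 23.3% of control with shRNA1, 65.6% with shRNA2 and 23.6% with shRNA3.

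Junction JUC01031051 read 11.37, 11.57 and 11.66 in control, 9.32, 9.43 and 9.24 for shRNA1, 10.55, 10.79 and 10.47 for shRNA2, and 9.20, 9.51 and 9.20 for shRNA3. Again control and knockdown did not overlap and shRNA2 lay in between, and 21.8%, 52.5% and 21.4% of the signal was left. Junction JUC01031071 read 11.27, 11.52 and 11.47 in control, 9.09, 8.96 and 8.77 for shRNA1, 10.59, 10.61 and 10.44 for shRNA2, and 8.85, 9.15 and 8.88 for shRNA3. The signal left was 18.0%, 54.7% and 18.2% of control, with shRNA1 and shRNA3 less than for the other 2 probe sets and with shRNA2 between them. All 3 stayed above the level cutoff on every knockdown array. The arrays average over all cells of a sample, so fewer cells with a form of the transcript and less of it in each cell cannot be told apart.

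**Figure D1:**
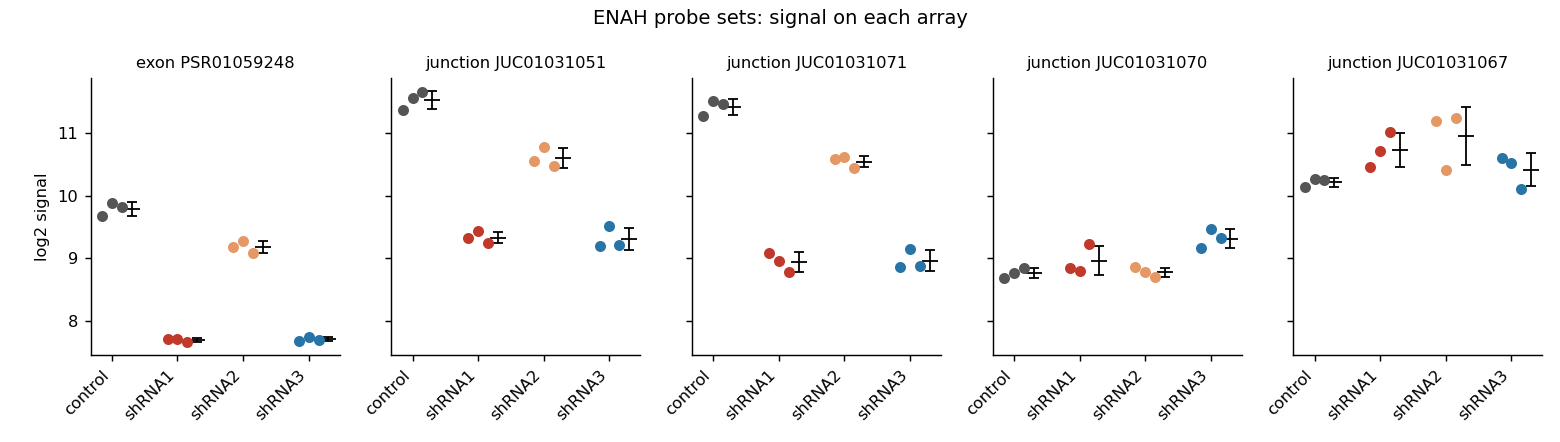
Log2 signal of 5 ENAH probe sets (y axis) on each of the 12 arrays, by group (x axis); points are arrays and the bars beside them are the mean with its SD over 3 arrays. The first 3 panels, PSR01059248, JUC01031051 and JUC01031071, are low with shRNA1 and shRNA3 and in between with shRNA2, while JUC01031070 is higher with shRNA3 and JUC01031067 scatters between the arrays of a group.

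To separate the use of an exon from the level of its gene, each probe set was compared, array by array, with the mean over the remaining kept probe sets of that gene. This difference, the splicing index, shows unequal change within a gene. Its changes are in log2 units, shRNA minus control, with standard errors (SE) from limma's fit over 3 arrays per group. The call rule was an adjusted p below 0.05 together with a difference of 1.5-fold or more. The splicing index of PSR01059248 differed from control by -2.01, -0.59 and -1.98 with shRNA1, shRNA2 and shRNA3 (SE 0.06), that of JUC01031051 by -2.11, -0.92 and -2.13 (SE 0.10) and that of JUC01031071 by -2.39, -0.86 and -2.36 (SE 0.10).

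These were the only ENAH probe sets called with all 3 hairpins. With shRNA1 3 of 49 were called, all lower, where 0.129% of all probe sets were called and 0.0666% were called lower. With shRNA2 it was 3 of 49, all lower, against 0.22% called and 0.0819% lower. With shRNA3 3 were lower and 1 higher, against 0.195% called, 0.116% lower and 0.0788% higher. With all 3 hairpins in one direction it was 3 of 49, all lower, against 0.0386% in either direction and 0.0244% lower. As ENAH was chosen from these contrasts, the shares are given as description only, and all of them share the same 3 control arrays.

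The exon PSR01059248 was just inside the 1.5-fold limit with shRNA2, at a fold of 1.503. It fell under that limit when control replicate 2, shRNA2 replicate 1 or shRNA2 replicate 3 was left out, which left 2 ENAH probe sets called with all 3 hairpins in each case. With only the control and shRNA2 arrays in the fit, JUC01031071 was the single ENAH probe set called with shRNA2. Over the 12 arrays the splicing indices of the 3 probe sets had correlations of 0.987 to 0.995 with each other, as a description of arrays that share their groups. The files used here place no probe set in the gene, so whether the exon and the junctions belong to the same splicing event was not analysed here.

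The rest of ENAH stayed close to control. When the 3 probe sets were left out of the reference, the other 46 had a median splicing index change of 0.02, 0.00 and 0.01 for shRNA1, shRNA2 and shRNA3. Their changes ranged from -0.42 to 0.73, and 33 of the 46 were within 0.2 of control with every hairpin. With the 3 in the reference, as in the calls above, the median over all 49 was 0.15, 0.05 and 0.14. The offset above 0 was thus present only with the 3 low probe sets in the reference. With them in it, 12 of the 49 had all 9 knockdown arrays above all 3 controls and 3 had them all below, against 2.53% and 2.51% of all probe sets. The 12 carry that offset, and the same count without the 3 in the reference was not made.

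Some other ENAH junctions leaned the opposite way, by less when the 3 low probe sets were out of the reference. Junction JUC01031070 read 8.69, 8.76 and 8.84 in control, 8.85, 8.80 and 9.23 for shRNA1, 8.85, 8.78 and 8.71 for shRNA2, and 9.16, 9.47 and 9.32 for shRNA3. The shRNA3 arrays were all above the controls, while the shRNA2 arrays overlapped them. Its splicing index differed from control by 0.34, 0.05 and 0.71 (SE 0.11), which was past 1.5-fold with shRNA3 alone. The difference between shRNA3 and shRNA2 was 0.66. With the 3 low probe sets out of the reference, its changes from control were 0.19, -0.005 and 0.57. The change with shRNA3 was then under the 1.5-fold limit.

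Junction JUC01031067 read 10.13, 10.27 and 10.25 in control, 10.46, 10.72 and 11.02 for shRNA1, 11.20, 10.42 and 11.24 for shRNA2, and 10.61, 10.53 and 10.11 for shRNA3. The arrays of a group lay up to most of a log2 unit apart, and shRNA3 overlapped the controls. Its changes of 0.66, 0.78 and 0.35 (SE 0.21) were past the fold limit with shRNA1 and shRNA2 but were not called. Without the 3 low probe sets in the reference they were 0.52, 0.73 and 0.21, past that limit with shRNA2 alone. Junction JUC01031058 showed a smaller difference with less scatter, at 11.86, 12.04 and 11.96 in control, 12.20, 12.18 and 12.12 for shRNA1, 12.18, 12.20 and 12.19 for shRNA2, and 12.24, 12.09 and 12.11 for shRNA3. All 9 of its knockdown arrays were above the controls, and its changes of 0.35, 0.27 and 0.34 (SE 0.06) were under the fold limit. These changes were 0.21, 0.22 and 0.20 without the 3 low probe sets in the reference.

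Exon PSR01059245 (0.30, 0.38 and 0.08), junction JUC01031060 (0.27, 0.19 and 0.17) and exon PSR01059252 (0.27, 0.24 and 0.12) followed in size. With the 3 low probe sets out of the reference, PSR01059245 had 0.16, 0.33 and -0.06. JUC01031060 then had 0.13, 0.14 and 0.03, and PSR01059252 had 0.13, 0.19 and -0.02. On the low side, after the 3 called probe sets, came junction JUC01031061 with -0.18, -0.36 and -0.12, exon PSR01059247 with -0.26, -0.11 and -0.20, and exon PSR01059262 with 0.01, -0.20 and -0.07. Without the 3 in the reference, JUC01031061 had -0.33, -0.42 and -0.26 and PSR01059247 had -0.40, -0.16 and -0.34. PSR01059262 then had -0.14, -0.25 and -0.21. None of these 6 was called with any hairpin, and their distance from the 3 called probe sets was over a log2 unit with shRNA1 and shRNA3.

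The difference in ENAH's gene value was carried by the 3 low probe sets. ENAH's gene value, the mean of its 49 probe sets, was 10.68, 10.73 and 10.74 in control, 10.60, 10.59 and 10.57 for shRNA1, 10.70, 10.67 and 10.69 for shRNA2, and 10.56, 10.60 and 10.57 for shRNA3. The shRNA1 and shRNA3 arrays were below all controls and shRNA2 overlapped them. The differences from control were -0.13, -0.03 and -0.14 (SE 0.03), or 91.3%, 97.8% and 90.6% of the control signal.

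Without the 3 probe sets the values were 10.67, 10.72 and 10.73 in control, 10.72, 10.72 and 10.70 for shRNA1, 10.74, 10.69 and 10.73 for shRNA2, and 10.68, 10.71 and 10.70 for shRNA3. All groups then overlapped, and the differences from control were 0.01, 0.02 and -0.00 (SE 0.03). The median over single ENAH probe sets of their signal change was likewise 0.01, 0.01 and -0.00. Using the median signal of the kept probe sets as the gene value gave -0.29, -0.19 and -0.33, and without the 3 probe sets -0.05, -0.00 and -0.01.

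The gene values of VASP and EVL overlapped between control and every knockdown group. VASP, first known as a substrate of cyclic nucleotide-dependent kinases, had 8.83, 8.79 and 8.82 in control, 8.75, 8.80 and 8.87 for shRNA1, 8.85, 8.78 and 8.85 for shRNA2, and 8.88, 8.82 and 8.85 for shRNA3. Its changes were -0.01, 0.01 and 0.03 (SE 0.04), with limma adjusted p of 0.935, 0.928 and 0.505. The 95% intervals ran from -0.09 to 0.07, from -0.07 to 0.09 and from -0.05 to 0.11.

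EVL, the third member of the family, had 8.63, 8.67 and 8.71 in control, 8.68, 8.69 and 8.73 for shRNA1, 8.65, 8.75 and 8.72 for shRNA2, and 8.72, 8.70 and 8.73 for shRNA3. Its changes were 0.03, 0.04 and 0.05 (SE 0.04), with limma adjusted p of 0.610, 0.465 and 0.327. The 95% intervals ran from -0.04 to 0.11, from -0.03 to 0.12 and from -0.03 to 0.12. Over all genes 10.1%, 14.5% and 26.8% were called with shRNA1, shRNA2 and shRNA3, and neither paralog was among them. For the mean of the 3 hairpins VASP had a change of 0.01 (limma adjusted p = 0.826) and EVL of 0.04 (limma adjusted p = 0.340), where 23.1% of genes were called.

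**Figure D2:**
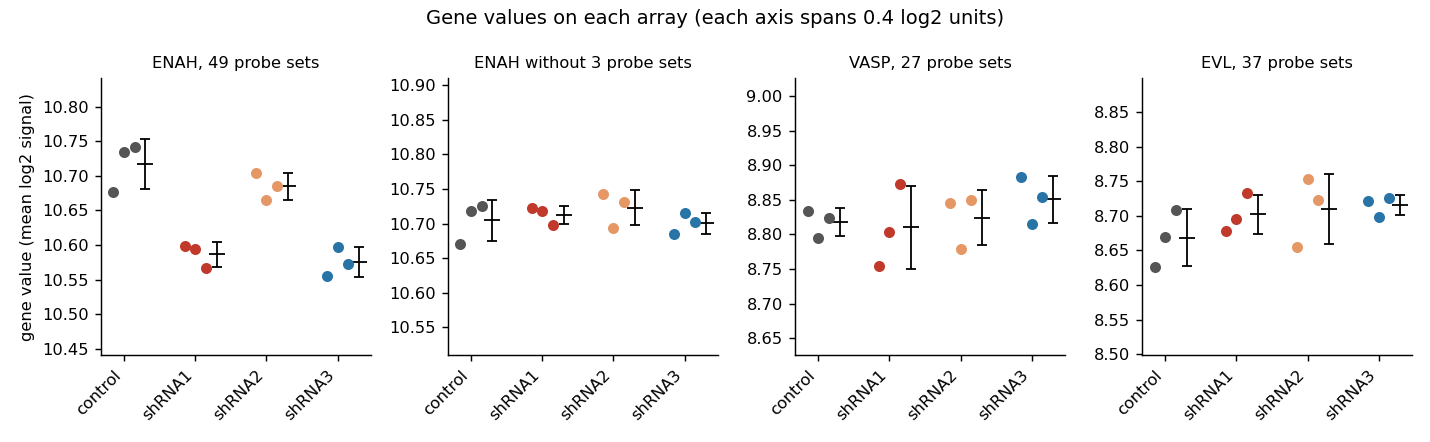
Gene value (y axis, mean log2 signal of the kept probe sets) of ENAH, of ENAH without its 3 called probe sets, of VASP and of EVL on each array, by group (x axis); points are arrays, bars are the mean with its SD over 3 arrays, and every axis spans the same range. The ENAH values with shRNA1 and shRNA3 lie below the controls in the first panel and overlap them in the second, and VASP and EVL overlap in all groups.

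No probe set of VASP or EVL was called in any contrast with control, in 27 and 37 tested. Over all probe sets 0.129%, 0.22% and 0.195% were called with shRNA1, shRNA2 and shRNA3. At shares this low, having none called does not set the 2 paralogs apart from other genes. At an unadjusted p below 0.05 in limma's fit there were 3, 4 and 1 for VASP and 3, 3 and 2 for EVL with shRNA1, shRNA2 and shRNA3. The share of all probe sets at that limit was not computed, so these counts are a description only. The splicing index changes of VASP lay between -0.20 and 0.21 with shRNA1, between -0.31 and 0.30 with shRNA2 and between -0.25 and 0.17 with shRNA3. Those of EVL lay between -0.22 and 0.33, between -0.35 and 0.27 and between -0.23 and 0.17. All of these were inside the 1.5-fold limit. Neither gene had a probe set with all 9 knockdown arrays on one side of the controls. Of all probe sets, 2.51% had them all below and 2.53% all above, so few were to be looked for among 27 and 37.

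The lowest VASP probe set over the hairpins was junction JUC19005407, with a splicing index of -0.61, -0.77 and -0.97 in control and -1.07, -1.06 and -0.96 with shRNA3. The groups overlapped, and its changes were -0.19, -0.23 and -0.25 (SE 0.12). Junction JUC19005402 followed with -0.18, -0.31 and -0.07 (SE 0.08). The highest were JUC19005410 with 0.21, 0.30 and 0.05 (SE 0.16) and JUC19005411 with 0.15, 0.20 and 0.17 (SE 0.10).

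In EVL the highest was junction JUC14003992, with a signal of 8.20, 8.43 and 8.54 in control, 8.65, 8.68 and 8.88 for shRNA1, 8.75, 8.65 and 8.66 for shRNA2, and 8.60, 8.65 and 8.55 for shRNA3. Its signal was above all controls on every knockdown array, but its splicing index overlapped with shRNA3. The splicing index changes were 0.33, 0.27 and 0.17 (SE 0.08; limma adjusted p = 0.133, 0.123 and 0.339). Exon PSR14007766 had changes of 0.17, 0.16 and 0.07. Junctions JUC14003998 (-0.22, -0.35 and -0.09) and JUC14003991 (-0.17, -0.09 and -0.19) were lowest, and none of the 4 passed the test.

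**Figure D3:**
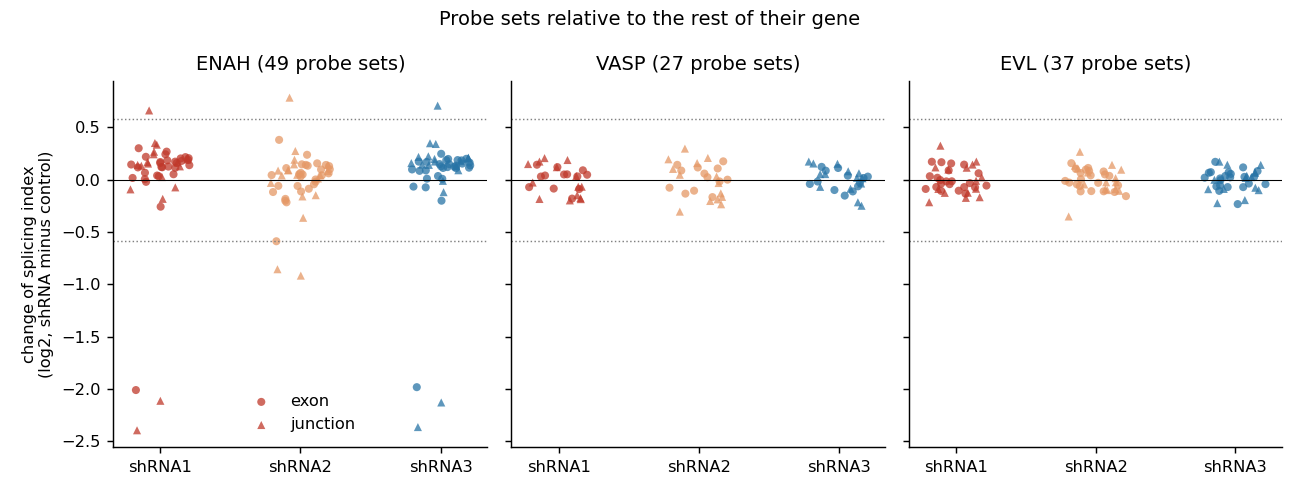
Change of the splicing index against control (y axis, log2) for every kept probe set of ENAH, VASP and EVL, by hairpin (x axis); circles are exons, triangles junctions, and dotted lines mark a 1.5-fold difference. The 3 called ENAH probe sets stand alone near -2 with shRNA1 and shRNA3 and lie at -0.59 to -0.92 with shRNA2, while every VASP and EVL probe set is inside the lines.

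The hairpins were then compared with each other as a description, since the values on these arrays were known when ENAH was chosen. The differences themselves do not use the control arrays. Their SE, intervals and calls come from the fit over all 4 groups, which includes the spread among the controls. The 3 ENAH probe sets were higher with shRNA2 than with shRNA1 and lower with shRNA3 than with shRNA2. For PSR01059248 the splicing index differed by 1.42 between shRNA2 and shRNA1 and by -1.39 between shRNA3 and shRNA2 (SE 0.06). JUC01031051 differed by 1.196 and -1.21 (SE 0.10), and JUC01031071 by 1.54 and -1.51 (SE 0.10). They were the only member probe sets called, 3 of the 49 of ENAH in either difference, where 0.0177% and 0.0189% of all probe sets were called. In the direction of the 3, these shares were 0.0134% higher with shRNA2 than with shRNA1 and 0.0153% lower with shRNA3 than with shRNA2. With only shRNA2 and shRNA3 in the fit, JUC01031051 was no longer past the call rule for their difference.

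Between shRNA3 and shRNA1 none of the 3 was past the call rule, and 0.00311% of all probe sets were. The difference was 0.03 for PSR01059248 (95% interval -0.11 to 0.16), -0.02 for JUC01031051 (-0.24 to 0.21) and 0.03 for JUC01031071 (-0.18 to 0.24). The change with shRNA3 was 98.6%, 101% and 98.7% of that with shRNA1 for PSR01059248, JUC01031051 and JUC01031071, and the change with shRNA2 29.3%, 43.4% and 35.7% of it. No other ENAH probe set was called between shRNA3 and shRNA1. No VASP or EVL probe set was called in any of the 3 differences between hairpins.

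At the gene level ENAH was not called between hairpins. The difference was 0.10 between shRNA2 and shRNA1, -0.01 between shRNA3 and shRNA1 and -0.11 between shRNA3 and shRNA2, each with an SE of 0.03. Over all genes 1.19%, 7.1% and 3.56% were called in these differences. The last difference was called when shRNA2 replicate 2 was left out, at -0.12. Without the 3 low probe sets in the gene value the differences were 0.01, -0.01 and -0.02 in the same order (SE 0.03). None of these was called.

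RBFOX2 itself differed between all pairs of hairpins. Its gene value had fallen by 1.04, 0.46 and 0.74 (SE 0.03) with shRNA1, shRNA2 and shRNA3. It was higher with shRNA2 than with shRNA1 by 0.58 (limma adjusted p = 6.9e-07), higher with shRNA3 than with shRNA1 by 0.29 (limma adjusted p = 0.000182) and lower with shRNA3 than with shRNA2 by 0.28, a difference of -0.28 (limma adjusted p = 0.000217). The hairpin with the smallest RBFOX2 fall, shRNA2, was also the one with the smallest ENAH differences. The hairpins shRNA1 and shRNA3 differed in RBFOX2 and had ENAH splicing index differences whose intervals include 0. The other family members RBFOX1 (-0.09, -0.03 and 0.02) and RBFOX3 (0.01, 0.07 and -0.07) passed the test with no hairpin.

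**Figure D4:**
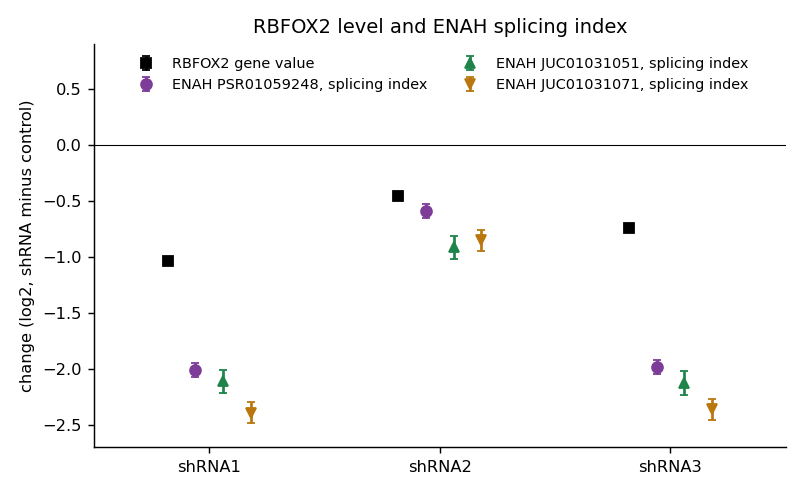
Change against control (y axis, log2) of the RBFOX2 gene value and of the splicing index of the 3 called ENAH probe sets, by hairpin (x axis); points are the estimates and bars their SE. RBFOX2 lies at -1.04, -0.46 and -0.74, and the ENAH probe sets lie near -2 with shRNA1 and shRNA3 and above -1 with shRNA2.

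The patterns most like that of ENAH were sought by Pearson correlation over the 12 arrays, which fall into the same 4 groups for every gene. For the splicing index of JUC01031071 the closest probe sets of other genes were in EPB41L2 (PSR06026394, r = 0.993), a membrane skeleton protein, FN1 (JUC02023191, 0.991), which encodes fibronectin, GOLIM4 (JUC03017465, 0.986), a Golgi membrane protein, FAT3 (PSR11011316, 0.984), an atypical cadherin, and MXRA7 (JUC17014533, 0.980). Their splicing index changes were -1.82, -0.81 and -1.77 for EPB41L2, -2.09, -0.78 and -2.05 for FN1, -2.42, -0.94 and -2.07 for GOLIM4, -2.10, -0.83 and -2.07 for FAT3 and -1.82, -0.81 and -1.85 for MXRA7. In all 5 the change with shRNA2 was the smallest of the 3, which the choice by likeness to JUC01031071 favoured.

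For the gene value of ENAH the closest were APBB2 (0.948), DLC1 (0.931), RAC1 (0.926), a GTPase that drives lamellipodia, GOLIM4 (0.919) and ALDH1A2 (0.915), a retinoic acid-forming enzyme. RAC1 had gene value changes of -0.21, -0.05 and -0.20 (SE 0.03) and ALDH1A2 of -0.33, 0.02 and -0.40 (SE 0.04). When the 3 probe sets were left out of the ENAH value, none of these 5 was among the closest, and the highest were PRRC2C (0.807), ARHGAP11A (0.800), RREB1 (0.772), KIRREL1-IT1 (0.769) and HNRNPU (0.758).

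Genes that work around Ena/VASP proteins were followed as a list of 71, of which 69 were measured. They cover monomer supply and filament ends, nucleation, EVH1 partners and adhesions, kinases of Ena/VASP proteins, and actins with their transcriptional regulators. With shRNA1 3 rose and 2 fell (7.25% of the 69), with shRNA2 5 rose and 4 fell (13%), and with shRNA3 3 rose and 13 fell (23.2%). Over all genes 5.99% rose and 4.07% fell with shRNA1, 5.92% rose and 8.63% fell with shRNA2, and 12% rose and 14.8% fell with shRNA3. The list's share called was slightly under that of all genes, 10.1%, 14.5% and 26.8%, with each hairpin. Its median change was -0.02, -0.02 and -0.04, and that of all genes -0.01, 0.00 and 0.02. None of the 69 was called with all 3 hairpins in one direction by limma, where 4.68% of all genes were. At the looser limit of an unadjusted p below 0.05 in limma's fit with every hairpin there were 6. The share of all genes at that limit was not computed, so the 6 cannot be set against the 4.68%.

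These counts rest on small changes and moved with single arrays. The count with shRNA1 was 2, 2 and 1 without control replicate 1, 2 or 3, it was 1 without shRNA1 replicate 1 or 2, and 8 without shRNA2 replicate 1. The count with shRNA2 was 4 without control replicate 3, 16 without shRNA2 replicate 1 and 5 without shRNA2 replicate 2. The count with shRNA3 was 8 without control replicate 1 or 3, 7 without shRNA3 replicate 1 and 8 without shRNA3 replicate 3. A single gene passed with all 3 hairpins in one direction when an shRNA2 array was left out: DIAPH1 without replicate 1, and PALLD without replicate 2 or 3.

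Among the 12 EVH1 partners and adhesion genes, 2, 4 and 1 rose with shRNA1, shRNA2 and shRNA3, where 5.99%, 5.92% and 12% of all genes rose. None fell, where 4.07%, 8.63% and 14.8% of all genes did. PALLD, an actin cross-linker that binds Ena/VASP proteins, had changes of 0.14, 0.24 and 0.11 (SE 0.04; limma adjusted p = 0.0375, 0.00198 and 0.0529). It passed with shRNA1 and shRNA2. VCL, which encodes vinculin of focal adhesions, had 0.05, 0.15 and 0.17 and passed with shRNA2 and shRNA3, and RAPH1 (lamellipodin), which brings Ena/VASP proteins to the leading edge, had 0.13, 0.13 and 0.06 and passed with shRNA1 and shRNA2. TES, a LIM protein that binds the EVH1 domain of ENAH, had 0.13, 0.18 and -0.05 and passed with shRNA2. The lowest of the group were ROBO1, an axon guidance receptor (-0.03, -0.00 and -0.06), and FYB1 (-0.05, -0.03 and 0.00), neither of which passed.

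Of the 30 nucleation genes 1 rose and 1 fell with shRNA1, 1 rose and 1 fell with shRNA2, and 1 rose and 5 fell with shRNA3. The 5 are 16.7% of the group, near the 14.8% of all genes that fell with shRNA3, and of all genes 4.07% and 8.63% fell with shRNA1 and shRNA2. Each single rise is 3.33% of the group, where 5.99%, 5.92% and 12% of all genes rose with shRNA1, shRNA2 and shRNA3. The formin DIAPH3 had changes of 0.21, 0.20 and 0.05 (SE 0.05) and rose with shRNA1 and shRNA2 (limma adjusted p = 0.0131 and 0.0122). The formin DIAPH1 had -0.12, -0.12 and -0.14 (SE 0.04) and passed with shRNA3 (limma adjusted p = 0.0200). DIAPH2 had 0.11, 0.12 and 0.12 (SE 0.06) and did not pass. CYFIP1, a subunit of the WAVE complex, had -0.19, -0.03 and -0.11 and passed with shRNA1.

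Of the 18 genes for monomers and filament ends, 1, 2 and 5 fell with shRNA1, shRNA2 and shRNA3, and 1 rose, with shRNA3. These falls are 5.56%, 11.1% and 27.8% of the group, where 4.07%, 8.63% and 14.8% of all genes fell. The single rise is 5.56% of the group, where 12% of all genes rose with shRNA3. None rose with shRNA1 or shRNA2, where 5.99% and 5.92% of all genes did. LIMK2, a kinase of cofilin, had changes of -0.09, -0.15 and -0.14 (SE 0.03) and fell with shRNA2 and shRNA3 (limma adjusted p = 0.0102 and 0.00971). CAPZA2, a subunit of the capping protein that Ena/VASP proteins oppose, had -0.09, -0.07 and -0.19 (SE 0.05) and fell with shRNA3 (limma adjusted p = 0.00920). GSN, which encodes the severing protein gelsolin, rose with shRNA3 (0.09, 0.09 and 0.16). TMSB4X, which encodes the monomer-binding thymosin beta and was named after its values were seen, had 0.05, -0.39 and 0.12 (SE 0.06) and fell with shRNA2 (limma adjusted p = 0.00201). CAP2 had 0.10, 0.05 and -0.03 and did not pass.

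Among the 4 kinases PRKACA, a catalytic subunit of protein kinase A, had -0.09, -0.06 and -0.17 and fell with shRNA3, and PRKACB (-0.09, -0.06 and -0.02), PRKG1 (0.11, 0.13 and 0.09) and ABL1 (0.02, 0.02 and 0.06) passed with no hairpin. Of the 5 actins and regulators, none passed with shRNA1, 1 fell with shRNA2 (20%, against 8.63% of all genes) and 2 fell with shRNA3 (40%, against 14.8%). ACTG1, a cytoplasmic actin, had -0.03, -0.14 and -0.12 (SE 0.03) and fell with shRNA2 and shRNA3 (limma adjusted p = 0.0123 and 0.0202). SRF, the transcription factor that drives actin genes, had -0.12, -0.11 and -0.20 (SE 0.05) and fell with shRNA3 (limma adjusted p = 0.00952). MRTFA and MRTFB, its actin-sensing cofactors, had -0.05, -0.04 and -0.08, and 0.03, -0.03 and -0.10, and did not pass.

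**Figure D5:**
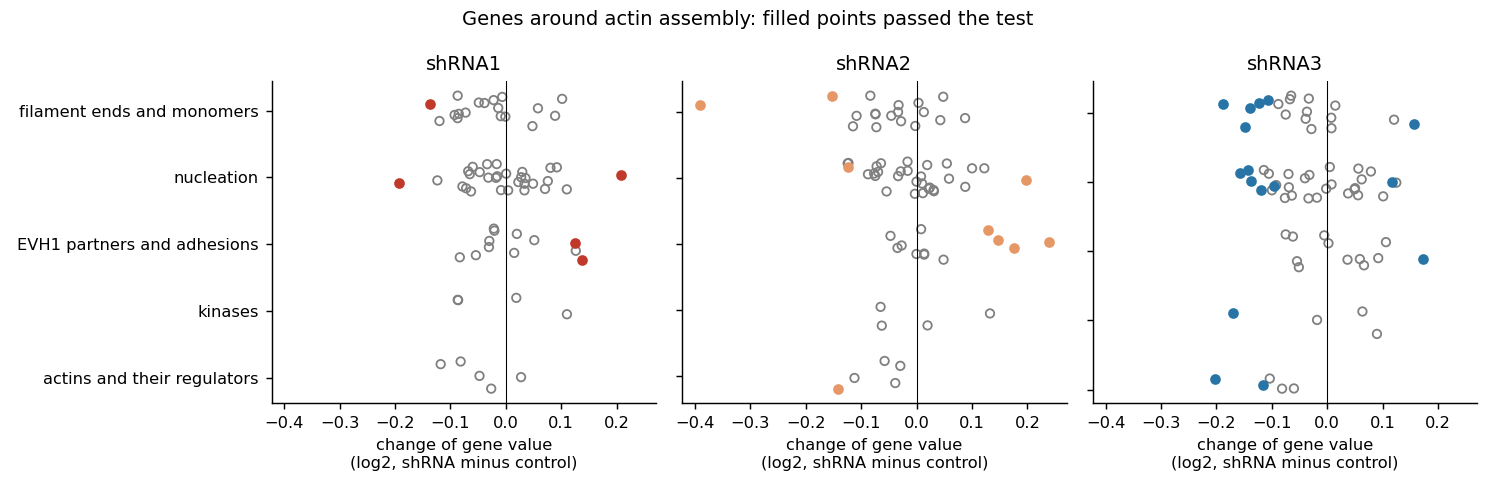
Change of the gene value against control (x axis, log2) of the 69 measured genes around actin assembly, in 5 groups (y axis), with 1 panel per hairpin; each point is a gene and filled points passed the test. Filled points number 5, 9 and 16 with shRNA1, shRNA2 and shRNA3, and nearly all points lie within 0.2 of 0.

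The splicing index was also read for the genes around actin assembly. Of 69 such genes with a splicing index, 2 held a probe set called with all 3 hairpins in one direction (2.9%), against 0.673% of the 15891 genes with one. Both were junctions that rose. Junction JUC10008069 of ABI1, an adaptor in the WAVE complex, had a log2 signal of 6.05, 5.75 and 5.40 in control, 7.78, 7.70 and 7.60 for shRNA1, 6.36, 6.77 and 6.47 for shRNA2, and 7.42, 7.45 and 7.49 for shRNA3. All knockdown arrays were above the controls, and those of shRNA2 were nearest to them. Its splicing index changes were 2.09, 0.88 and 1.85 (SE 0.15).

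Junction JUC0X002974 of DIAPH2, a formin, had 6.79, 5.96 and 5.96 in control, 8.28, 8.76 and 8.48 for shRNA1, 7.40, 7.44 and 7.51 for shRNA2, and 8.51, 7.96 and 8.0 for shRNA3. Again no knockdown array overlapped the controls, and its changes were 2.20, 1.11 and 1.83 (SE 0.22). The control means of both junctions, 5.73 for ABI1 and 6.24 for DIAPH2, were under the level cutoff, so both were kept only through the knockdown arrays. The filter therefore favoured a rise in them, and the count is given as a description. The number of such genes was 0 without a filter and with only the 2 groups compared, 1 with the 50th percentile, and between 0 and 3 without single arrays. The number was 0 without control replicate 2, control replicate 3 or shRNA2 replicate 3.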

How the data were processed

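RNA of 12 samples of 293T cells in 4 groups was measured on an exon and junction array. The authors deposited log2 values made with Affymetrix Expression Console and RMA, per the submitters' processing notes. The log2 scale follows from the range of the deposited values. Versions, settings and build were not given in the sources used here. No further normalization was applied. Probe set names and gene symbols came from the platform annotation, with symbols updated through RefSeq gene names. No probe coordinates or sequences were used here.

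The members, gene lists and tests were chosen with earlier results of these data known. Probe sets with a mean above the 40th percentile (log2 6.53) were kept. A gene value is the mean of at least 3 kept probe sets (16648 genes). For a splicing index the mean over the remaining kept probe sets of the gene was subtracted on each array (417377 probe sets in genes with at least 4). Arrays of all 4 groups were fitted together with limma 3.58.1 (lmFit and eBayes, two-sided, 8 residual degrees of freedom) in R 4.3.3 with data.table (version 1.17.8), and p-values were adjusted by Benjamini-Hochberg over all features of a contrast. Genes were called at an adjusted p below 0.05, splicing indices also at a 1.5-fold difference. The number of arrays limits the precision. The steps were tested on simulated data.

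Same-numbered arrays of control and shRNA2 deviated together (r of 0.202 to 0.432), while other pairs of groups did not all exceed 0.1. The main fit did not use the replicate numbers, so its contrasts of shRNA2 with control took no account of such a pairing. A block by replicate number over the arrays of all groups was fitted as an alternative. Other alternatives were no filter, the 50th percentile, copies kept, only the groups compared, trend and robust moderation, medians, exon probe sets only, called probe sets left out, and each array left out.

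Named ENAH probe sets are those called with all 3 hairpins, up to 6 highest and 6 lowest by mean change, and those nearest the limits. For VASP and EVL the 2 highest and 2 lowest are named, and for partner genes the 2 highest and 2 lowest per group. For likeness the 5 closest are named. RAPH1, TES and TMSB4X were chosen after their values were seen.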

Additional observations from a re-analysis of the deposited data

How the results depend on the processing

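ENAH's gene-level difference from control depended on how its probe sets were combined. Without a filter on low values it was -0.103 with shRNA1, -0.113 with shRNA3 and -0.0760 for the mean of the hairpins. With exon probe sets only these were -0.0761, -0.105 and -0.0661. With the median it was -0.29, -0.19 and -0.33 with shRNA1, shRNA2 and shRNA3 and -0.27 for their mean. With called probe sets left out of all genes it turned to 0.0037, 0.018 and -0.017, with 0.0017 for the mean. Between shRNA3 and shRNA2 it was called with trend and robust moderation (-0.11), and without single arrays it ran from -0.12 to -0.10. With only the 2 groups compared in the fit, which leaves fewer degrees of freedom, 1 ENAH probe set was called with shRNA2 and 1 with all 3 hairpins. With the median of the others as reference, PSR01059248 had -1.83, -0.41 and -1.79, which is under 1.5-fold with shRNA2.

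Partner gene counts were 3 with shRNA1 without a filter, 8 with shRNA1 and 4 with shRNA2 with only the 2 groups compared, 3 with shRNA1 and 6 with shRNA3 with the median, and 1 with all 3 hairpins (PALLD) with trend and robust moderation. Without single arrays they ran from 1 to 8 with shRNA1, from 4 to 16 with shRNA2, from 7 to 20 with shRNA3 and from 0 to 1 with all 3. The cause of these moves was not tested. With the replicate block 3 ENAH probe sets were still called with all 3 hairpins and partner counts were 4, 9, 15 and 0. The block took the DIAPH2 junction out of the calls, which left 1 partner gene with a called probe set, and changed no other count by more than 1.5 times. VASP and EVL passed in no contrast with control under any alternative. Probe sets under the level cutoff, 6 of ENAH, 1 of VASP and 7 of EVL, could not be compared.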
